A study of Homo sapiens with 13 samples.

Results

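Genes of translation initiation and elongation, 10 in all, were followed by name through 9 libraries of mRNA 3’ ends: EIF1, EIF4A1, EIF4A2, EIF4G2, EIF5A, EEF1A1, EEF1B2, EEF1G, EEF1D and EEF2. They are 10 of the 14575 genes listed, and they carry 282 of the 211765 listed 3’ ends. The cells were HEK293 Flp-in T-REx, a human embryonic kidney line with an integrated pcDNA5 plasmid for Rpb1, the largest subunit of RNA polymerase II (Pol II). Rpb1 was either wild-type (WT) or carried R749H, a substitution that slows elongation, and both forms resist α-amanitin, the toxin that blocks the cells' own Pol II. The sample titles name both forms AvitagRpb1, that is, Rpb1 with an Avitag. Both lines received 2 µg/ml doxycycline for 24 hr to induce the plasmid and then 2.5 µg/ml α-amanitin for 42 hr, per the labels, so that wild-type cells were treated as well. The study's methods give a shorter induction before α-amanitin, with doxycycline kept on during it. The 9 libraries are 5 biological replicates of wild-type cells and 4 of R749H cells, read by 3’ READS, in which each read marks the 3’ end of 1 polyadenylated RNA fragment. An mRNA with a given 3’ end is called an isoform, and its place is given in nucleotides (nt) downstream of the stop codon. The mutation cannot be read from 3’ ends, so these data do not check which library carries R749H.

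In translation initiation, a small ribosomal subunit with initiation factors binds the capped mRNA, scans to the start codon and is joined by the large subunit. eIF1 guards the choice of start codon, the helicases eIF4A1 and eIF4A2 unwind the mRNA, and eIF4G2 (DAP5) is a relative of the scaffold eIF4G1 that lacks the binding site for the cap-binding protein eIF4E. In elongation, eEF1A brings aminoacyl-tRNA to the ribosome, the eEF1B complex (EEF1B2, EEF1D and EEF1G products) reloads eEF1A with GTP, eEF2 moves the ribosome by a codon, and eIF5A, despite its name, helps it through difficult stretches such as runs of proline. Proliferating cells make these proteins in large amounts.

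Within 5 kb of a stop codon the wild-type libraries held 2479851 to 10135014 reads and the R749H libraries 3863468 to 6475987, of which 1.79% to 3.12% fell in the 10 genes. R749H replicate 3 stood apart, with 41033 3’ ends against 73112 to 112834 in the others and 6.60% of its 3’ ends at 1 read against 30.05% to 36.2%. Over all genes, wild-type replicate 1 had the lowest correlations with the other wild-type libraries (Pearson's r of log2 levels across genes, 0.923 to 0.953), so results that turn on either library are given without it. Of the markers checked, KRT18 (364 to 684 RPM, a depth-scaled unit), KRT8 (49.1 to 81.6), VIM (49.1 to 179), INA (23.6 to 69.9) and EPCAM (14.97 to 39.9) were found in every library. These marker values were scaled by depth alone, without the correction of library totals used for levels below. The neurofilament gene NEFL was at 0, as were PTPRC and HBB of blood cells, and NEFM, CD3E, ALB and COL1A1 had at most 1, 3, 1 and 4 reads.

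The 3’ ends that held most reads are shown first, because the levels below are sums over them. Each line ends at the 3’ end itself and shows the last 30 nt on the transcribed strand of the reference genome (hg19), with the polyadenylation hexamer AATAAA or ATTAAA in capitals. All of them lay in an annotated 3’ UTR.
EIF1 +172, chr17:39847221-39847250, plus strand: actccttcatgcAATAAActgaaaagagcc
EIF1 +815, chr17:39847864-39847893, plus strand: aacccttatttaAATAAAacttgttttcag
EIF4A2 +625, chr3:186507654-186507683, plus strand: tgaatgttaAATAAAttgtatattcacttt
EEF1B2 +44, chr2:207027622-207027651, plus strand: catggcatttaAATAAAagattgaaagatt
EEF1G +83, chr11:62327068-62327097, minus strand: tcATTAAAggaaactgaacattgaaccctt
EEF2 +497, chr19:3976055-3976084, minus strand: cattggaatAATAAAtttgataaggtggtg
EEF1A1 +2058, chr6:74225475-74225504, minus strand: gctcactacAATAAAtgaattttaagcttt
EEF1G and EEF1D had ATTAAA at their leading 3’ end, and the other 8 genes had AATAAA. Among 6230 genes with at least 180 reads, AATAAA was found in the 40 nt before the leading 3’ end of 68.6% and ATTAAA, in genes without AATAAA, in 16.6%, on the transcribed strand only. The distance between hexamer and 3’ end was 12 nt at EIF1 +172, 15 nt at EIF4A2, EEF2 and EEF1A1, 13 nt at EEF1B2 and 22 nt at EEF1G.

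Levels were compared as RPM, the reads of a gene relative to all reads of its library on the usual scale, with library totals corrected by TMM (trimmed mean of M values) factors. A mRNA gives 1 end whatever its length, so levels were not divided by length. Whether reads of different genes were captured and mapped equally well was not tested, so the order below is that of the listed reads. Wild-type means spanned from 15052 ± 2675 (SD, n = 5) for EEF2 to 5.58 ± 4.15 for EIF5A. EIF1 came second at 6945 ± 1331. By the mean over all 9 libraries, EEF2 had rank 10 and EIF1 rank 26 among the 9494 genes tested. EEF1D (790 ± 174) and EEF1B2 (636 ± 82.4) followed, then EIF4A2 (304 ± 66.3), EIF4G2 (227 ± 127), EEF1G (167 ± 70.2), EIF4A1 (74.97 ± 18.8) and EEF1A1 (27.8 ± 3.25). In wild-type cells the libraries overlapped between EEF1D and EEF1B2, between EIF4A2 and EIF4G2, between EIF4G2 and EEF1G, and between EEF1G and EIF4A1. The other neighbours in this order were separate in all 5 libraries. In R749H cells EEF1B2 (1005 ± 99.4, n = 4) had a higher mean than EEF1D (866 ± 132), and these were the only neighbours in the order whose libraries overlapped.

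**Figure D1:**
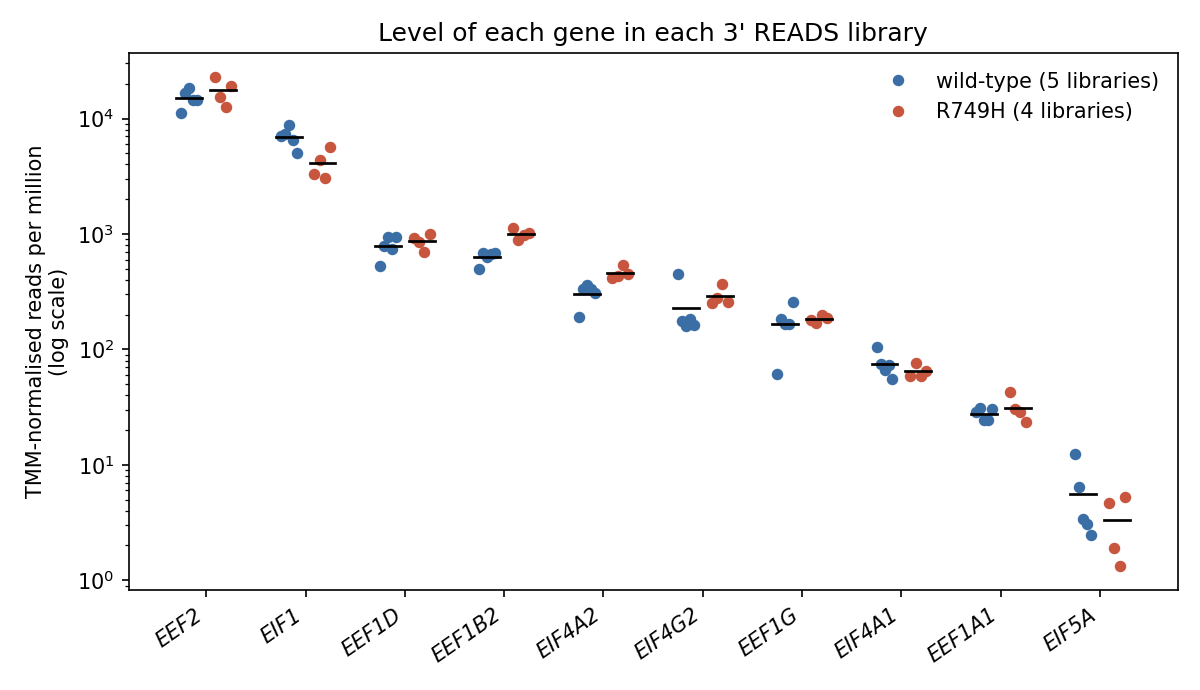
Level of each of the 10 genes in TMM-normalised RPM (log scale) in 5 wild-type and 4 R749H libraries. Each point is 1 library and each bar a group mean. EEF2 and EIF1 sit above all the others, and EEF1B2 and EIF4A2 are the genes whose R749H points all lie above the wild-type points.

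Some annotated ends of EEF1A1, EIF4A1 and EIF5A, the 3 genes with the lowest values, have copies elsewhere in the genome. Annotated EEF1A1 transcripts end at +285, +290 and +292 as well as at +2058. The 77 nt before the first 3 of these ends occur unchanged at 3, 1 and 1 other places in the genome, and no read was listed at any of them. All but a small part of EEF1A1 reads (1311 reads over 9 libraries, 93.9%) ended at +2058, whose last 30 nt occur once. Close to the copied ends, at +296, 1 to 8 reads per library were listed. EIF4A1 had annotated ends at +145 and +153 with a 77-nt copy elsewhere and no read. Of its reads 94.0% to 99.1% per library lay at +518 to +520, and 1 to 15 reads per library lay at +137. EIF5A had 1 such end at +813, also without a read, and its reads lay at +821 (167 reads, 83.1%). Ends without reads were not limited to those with copies. No read was listed either at EEF1A1 +2045, EIF4A1 +500, EIF5A +228 and +604, EIF1 +386 and EIF4G2 +645. These annotated ends have no other copy of 30 nt or more. Whether they are sites of polyadenylation in these cells was not tested. Shorter copies were found at 1 other place for the last 48 nt before EIF1 +172 and for the last 32 nt before EIF4A1 +520, as well as for the last 32 nt before EEF1D +64, and none of 30 nt or more for the leading ends of EIF4A2, EEF1B2, EEF1G and EEF2. Reads were mapped with at most 77 nt. How reads that matched several places were treated is not given in the sources used here, and the part of these copies in the levels was not tested. The values of these 3 genes are therefore levels of the isoforms whose ends were listed.

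The question put to the data was which of these genes differ in level, in 3’ end or in both between R749H and wild-type cells. Each form of Rpb1 was studied in 1 cell line, so slow elongation cannot be told apart from other differences between the lines. EEF1B2 and EIF4A2 rose and EIF1 fell in R749H cells, and the other 7 genes did not pass the test (limma over 9494 genes, Benjamini-Hochberg adjusted p under 0.05). Among all genes tested 25.1% passed, 13.8% lower and 11.3% higher in R749H. With 2 of 10 higher and 1 of 10 lower, the share of the 10 genes that passed was near this background. Their median log2 difference was 0.18, against -0.06 over all genes. As these are bulk samples, fewer cells with an mRNA and less of it per cell cannot be told apart.

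EIF1 showed the only fall among the 10 that passed the test. Its level was 7043, 7291, 8762, 6559 and 5071 RPM in wild-type replicates 1 to 5 and 3336, 4411, 3026 and 5644 in R749H replicates 1 to 4. The groups overlapped in 1 pair, R749H replicate 4 lying above wild-type replicate 5. The log2 difference was -0.78 (SE 0.21, 95% interval -1.22 to -0.34, adjusted p = 0.0116 by limma), a level 0.582 times that of wild-type. It passed the test without R749H replicate 3 (-0.62, adjusted p = 0.0436) and without wild-type replicate 1 (-0.77, adjusted p = 0.0127), and it missed the threshold when genes with low counts were kept (-0.80, adjusted p = 0.0622). Other genes near EIF1 on chromosome 17 were also lower: the 119 tested genes within 5 Mb had a median log2 difference of -0.49 (quartiles -0.92 and -0.08), and the 611 of the chromosome -0.42. The part of the neighbourhood in the EIF1 result was not tested.

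EEF1B2, the exchange subunit eEF1Bα, was at 494, 690, 638, 673 and 688 RPM in wild-type and at 1125, 885, 986 and 1025 in R749H. All R749H libraries lay above all wild-type libraries. Over all genes tested the groups did not overlap for 19.9%, and 2 of the 10 genes were among these. The log2 difference of EEF1B2 was 0.67 (SE 0.16, 95% interval 0.326 to 1.004, adjusted p = 0.00632 by limma), or 1.59-fold. The 26 tested genes within 5 Mb had a median log2 difference of 0.02. The call held without R749H replicate 3 (0.70, adjusted p = 0.0101) and without wild-type replicate 1 (0.57, adjusted p = 0.00673).

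EIF4A2 encodes the helicase paralog of eIF4A1. It was at 191, 336, 359, 331 and 306 RPM in wild-type and at 411.96, 434, 544 and 447 in R749H, again without overlap. The log2 difference was 0.62 (SE 0.19, 95% interval 0.22 to 1.02, adjusted p = 0.0230 by limma), or 1.54-fold. Without R749H replicate 3, the library with the highest value, the difference was 0.56 and missed the threshold (adjusted p = 0.0555). Without wild-type replicate 1, the library with the lowest value, it was 0.46 (adjusted p = 0.0308), and without both libraries 0.40 (adjusted p = 0.0619).

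**Figure D2:**
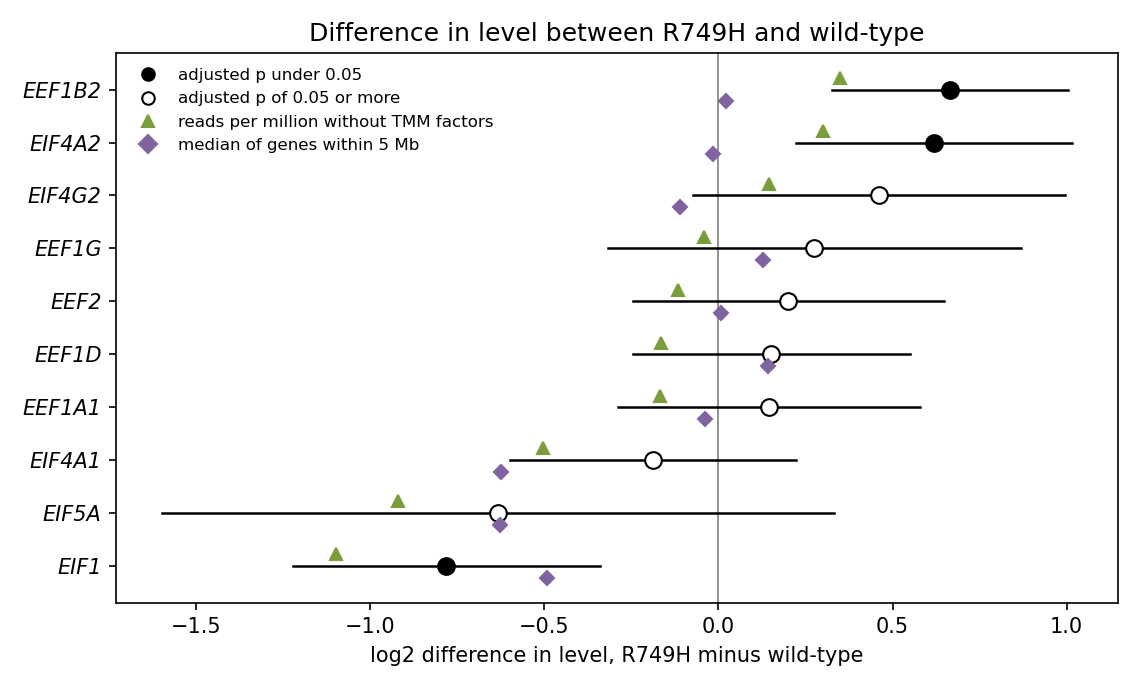
Difference in level between R749H (4 libraries) and wild-type (5 libraries) for the 10 genes, as log2 with 95% intervals from limma. Filled circles passed the test (EEF1B2, EIF4A2 and EIF1), triangles give the difference without TMM factors, and diamonds give the median difference of the tested genes within 5 Mb, which is lowest for the 3 genes on chromosome 17, at -0.49 for EIF1, -0.62 for EIF4A1 and -0.63 for EIF5A.

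These calls depend on how libraries were scaled. The TMM factors were 1.04 to 1.26 in wild-type and 0.812 to 0.972 in R749H, and without them the median log2 difference of all genes moved from -0.06 to -0.36. Of the genes called, 45.0% were higher in R749H with the factors (1071 higher, 1309 lower) and 15.5% without (471 higher, 2571 lower). Without the factors EEF1B2 was at 0.35 (adjusted p = 0.0640) and EIF4A2 at 0.30 (adjusted p = 0.184), so both kept their direction and missed the threshold. EIF1 was then at -1.10 (adjusted p = 2e-04). EEF1A1 (-0.17), EEF1D (-0.17), EEF1G (-0.04) and EEF2 (-0.12) turned from a positive to a negative difference, and none of the 4 passed the test under either scaling. With RLE factors the 3 calls were the same.

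Of the other 2 subunits of the exchange complex, EEF1D (eEF1Bδ) was at 528, 780, 948, 742 and 950 RPM in wild-type and at 920, 845, 694 and 1005 in R749H. The log2 difference was 0.15 (95% interval -0.25 to 0.55, adjusted p = 0.593 by limma), and it was 0.01 without wild-type replicate 1 and 0.28 without R749H replicate 3. EEF1G (eEF1Bγ) was at 61.1, 184, 165, 166 and 258 in wild-type and at 179, 171, 198 and 187 in R749H. The wild-type libraries spread over a wider range than the R749H libraries, which all lay between the lowest and the highest wild-type value. Its difference was 0.28 (95% interval -0.32 to 0.87, adjusted p = 0.507), and it was -0.05 without wild-type replicate 1, the lowest library (adjusted p = 0.852).

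The factors that work beside this complex did not pass the test either. EEF2 was at 11142, 16602, 18297, 14609 and 14610 RPM in wild-type and at 22719, 15454, 12544 and 19298 in R749H (log2 difference 0.20, 95% interval -0.25 to 0.65, adjusted p = 0.524 by limma). Without R749H replicate 3 the difference was 0.38 and without wild-type replicate 1 it was 0.10, and neither passed the test. The highest and the second lowest EEF2 value of all 9 libraries were both R749H. EEF1A1, of whose reads 89.9% to 95.5% per library lay at +2058, was at 28.5, 31.1, 24.6, 24.2 and 30.6 in wild-type and 42.4, 30.7, 28.8 and 23.5 in R749H (0.15, 95% interval -0.29 to 0.58, adjusted p = 0.642). EIF5A rested on 5 to 39 reads per library and had a difference of -0.63 with an interval from -1.60 to 0.33 (adjusted p = 0.334 by limma), and a difference of -0.30 when R749H replicate 3 or wild-type replicate 1 was left out singly. The interval is too wide to show a change of the size seen for EIF1.

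Of the remaining initiation factors, EIF4A1 was at 106, 74.1, 65.9, 73.4 and 55.6 RPM in wild-type and at 59.0, 76.7, 58.6 and 64.5 in R749H (log2 difference -0.19, 95% interval -0.60 to 0.22, adjusted p = 0.518 by limma). It was -0.06 without wild-type replicate 1, the highest library, and -0.12 without R749H replicate 3. EIF4G2 was at 454, 177, 159, 184 and 163 in wild-type and at 250, 277, 372 and 258 in R749H. All R749H libraries lay above 4 of the 5 wild-type libraries and below wild-type replicate 1. Its difference was 0.46 (95% interval -0.07 to 0.99, adjusted p = 0.194). Without wild-type replicate 1 it was 0.74 and passed the test (adjusted p = 0.00361), so that single library decides the call.

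Ratios of 2 genes within a library need no scaling between libraries. EIF4A1 reads were 0.555, 0.220, 0.184, 0.222 and 0.182 times EIF4A2 reads in wild-type and 0.143, 0.177, 0.108 and 0.144 times in R749H. All R749H ratios lay below all wild-type ratios, the nearest being 0.177 and 0.182. The log2 ratio averaged -2.02 ± 0.67 over the wild-type libraries (SD, n = 5) and -2.83 ± 0.29 over the R749H libraries (SD, n = 4), a difference of -0.81 (two-sided exact permutation test, p = 0.0317, and 0.159 after Benjamini-Hochberg adjustment over 5 ratios; the smallest p the design allows is 0.00794). Without wild-type replicate 1 the difference was -0.51.

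The other 4 ratios did not pass the test either. EEF1B2 to EEF1G was 8.08, 3.75, 3.88, 4.05 and 2.67 in wild-type and 6.29, 5.19, 4.99 and 5.49 in R749H, a log2 difference of 0.39 (exact permutation test, adjusted p = 0.615). EEF1D to EEF1G differed by -0.13 on the log2 scale (adjusted p = 0.794, exact permutation test), and EEF1A1 to EEF2 by -0.05 (adjusted p = 0.794, exact permutation test). EIF5A to EIF4A1 differed by -0.52 (adjusted p = 0.622, exact permutation test).

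The second question was whether the 3’ ends of these genes differed between R749H and wild-type cells. Their profiles were of 2 kinds. EEF1B2, EEF1D, EIF4A2 and EEF1A1 had a single isoform above 5% of the leading one, holding 98.3% to 99.1%, 97.0% to 98.1%, 91.3% to 96.1% and 89.9% to 95.5% of the gene's reads per library. The others had a main cluster, a run of such isoforms at most 4 nt apart. EEF2 ended at +495 and +497, EEF1G at +83 and +84, EIF4G2 at +761 and +765, EIF4A1 at +518, +519 and +520, EIF5A at +820 and +821, and EIF1 at +172, +174, +175 and +176.

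EIF1 alone had further isoforms above 5% outside its main cluster, a pair at +815 and +819. The main cluster held 89.1%, 87.9%, 89.7%, 86.0% and 79.8% of EIF1 reads in wild-type and 83.4%, 84.3%, 80.5% and 85.1% in R749H. The distal pair held 5.23%, 6.76%, 4.93%, 8.47% and 14.1% in wild-type and 11.9%, 10.9%, 14.6% and 9.89% in R749H. Wild-type replicate 5 lay among the R749H libraries and the other 4 wild-type libraries lay below them.

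No isoform of the 10 genes changed its share past the threshold. Of 9459 isoforms tested 0.190% passed, 0.0634% lower and 0.127% higher in R749H (limma on the log2 odds of an isoform's reads against the other reads of its gene), and 0 of the 15 tested isoforms of EEF1G, EEF2, EIF1, EIF4A1 and EIF4G2 were among them, with 5 of the 15, all of EIF1, at an unadjusted p under 0.05, as were 9.31% of all isoforms tested. Isoforms of 1 gene share its reads, so these 5 are not independent. EIF1 +815 held 4.32% ± 1.89 (SD, n = 5) of the gene's reads in wild-type and 6.59% ± 1.24 (n = 4) in R749H. The log2 odds differed by 0.72 (95% interval 0.17 to 1.28, adjusted p = 0.380 by limma). EIF1 +176, the last isoform of the main cluster, held 12.3%, 12.6%, 11.5%, 11.9% and 13.1% in wild-type and 11.03%, 10.9%, 10.8% and 10.3% in R749H. These groups did not overlap, which held for 3.93% of all isoforms tested, and the log2 odds differed by -0.21 (95% interval -0.35 to -0.08, adjusted p = 0.282 by limma). EIF1 +174 and +175 differed by -0.20 and -0.28 (adjusted p = 0.439 and 0.364), while the first isoform, +172, stood at 49.1% ± 3.56 and 50.3% ± 1.48 (difference 0.07, adjusted p = 0.837).

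**Figure D3:**
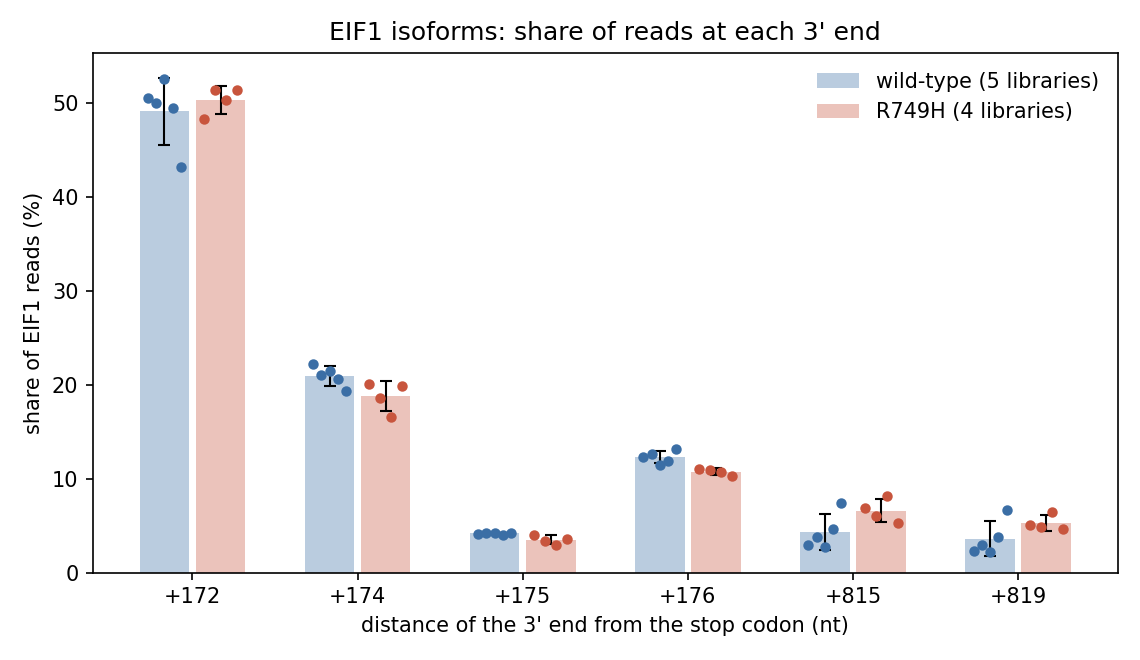
Share of EIF1 reads (%) at each of its 6 isoforms above 5% of the leading one, by distance of the 3’ end from the stop codon (nt). Bars are means of 5 wild-type and 4 R749H libraries, error bars are SD and points are libraries. The R749H points at +176 all lie below the wild-type points, and those at +815 overlap them only through 1 wild-type library at 7.42%.

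The read-weighted mean position of the EIF1 main cluster was 173.19, 173.20, 173.13, 173.18 and 173.30 nt from the stop codon in wild-type and 173.16, 173.08, 173.06 and 173.08 nt in R749H. In R749H, 3 of the 4 libraries lay upstream of every wild-type library. The difference was -0.11 nt (SE 0.034, 95% interval -0.18 to -0.03, unadjusted p = 0.0121 by limma, adjusted p = 0.788). Of 4078 main clusters 0 passed the test (220, or 5.39%, at an unadjusted p under 0.05), so 0.00% were called. The other 4 clusters tested moved less, by -0.05 nt in EIF4G2, -0.01 nt in EEF2, 0.01 nt in EEF1G and 0.01 nt in EIF4A1, and each interval held 0. For EEF2, with 34832 to 160451 reads per library, the interval ran from -0.02 to 0.005 nt.

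The share of each gene's reads downstream of its median 3’ end took in the minor ends as well. Of 7759 genes 0.0387% passed the test, and none of the 10 genes did, with 1 at an unadjusted p under 0.05 (limma), as were 9.46% of all genes tested. That gene was EEF1B2, for which 1.17%, 0.757%, 0.844%, 0.785% and 0.813% of reads lay downstream of +44 in wild-type and 0.788%, 0.526%, 0.405% and 0.697% in R749H. R749H replicate 1 lay above wild-type replicates 2 and 4, and in all 10 genes the groups overlapped, as against 4.01% of genes tested in which they did not. The log2 odds of EEF1B2 differed by -0.56 (95% interval -1.01 to -0.11, adjusted p = 0.425 by limma). In EIF1 the reads downstream of +172 made up 50.01% ± 3.54 in wild-type and 48.9% ± 1.61 in R749H, and in EEF2 those downstream of +497 made up 2.25% ± 0.36 and 2.40% ± 0.21. Precision differed among the 10 genes. The 95% interval of the difference in log2 odds was -0.29 to 0.17 for EIF1 and -0.17 to 0.37 for EEF2. For EIF5A it was -1.72 to 2.39. Power was checked in simulated counts of 7699 genes, with 1 fixed spread that was not fitted to these data. There the test called 0 of 192 randomly drawn genes whose odds were changed by 1 on the log2 scale. Of genes changed by 2 it called 104 of 196. The other tests of 3’ ends also missed planted changes. The isoform share test called 130 of 185 genes in which 1 isoform was changed by 1. The cluster position test called 66 of 141 genes whose reads were changed by 0.5 on the log2 scale per nt.

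The other genes of the pathway were taken from 4 lists, to be read against the 11.3% of all genes that were called higher, the 13.8% called lower and their median of -0.06. For eIF2, eIF2B and start codon selection, 4 of 16 genes tested rose and 1 fell, with a median log2 difference of 0.16. For eIF3, 2 of 12 rose and none fell (median -0.08). For eIF4F, cap binding and poly(A) binding, 1 of 12 rose and 3 fell (median 0.01), and for elongation, release and recycling 5 of 15 rose and none fell (median 0.06). Without TMM factors these counts became 1 and 3, 0 and 1, 1 and 4, and 3 and 3, higher and lower in the same order, and all 4 medians were negative (-0.14, -0.40, -0.29 and -0.25), as was that of all genes (-0.36).

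The largest rises among these were those of EEFSEC, the elongation factor for selenocysteine, at 1.10 on the log2 scale (70.7 ± 9.86 RPM in wild-type and 157 ± 55.0 in R749H), EIF4G1, the scaffold of the cap-binding complex, at 1.07 (308 ± 78.2 and 631 ± 48.8), EIF5A2, the paralog of EIF5A, at 0.94 (3.76 ± 0.87 and 7.51 ± 1.44), and EIF6, which keeps the large subunit from joining early, at 0.94 (1037 ± 49.6 and 2005 ± 296). In each the groups did not overlap, but these 4 were picked for their large rises. Over all genes tested the groups did not overlap for 19.9%. In the 4 lists, in the order above, this held for 1 of 16, 1 of 12, 2 of 12 and 5 of 15 genes. Of these 4, EIF5A2 missed the threshold without TMM factors (0.65, adjusted p = 0.118 by limma). The 58 tested genes within 5 Mb of EIF6 on chromosome 20 had a median of 0.63. EIF2S2, another called rise of its list, also lies on chromosome 20, where its 58 neighbours had a median of 0.66. Around EEFSEC, EIF4G1 and EIF5A2 the medians were -0.01, 0.18 and 0.20. The part of the neighbourhoods in these rises was not tested.

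The largest falls were those of EIF2S3, the γ subunit of eIF2, at -0.83 (108 ± 32.3 and 62.1 ± 22.5 RPM), PDCD4, an inhibitor of eIF4A, at -0.80 (12.6 ± 3.99 and 7.10 ± 2.50), EIF4EBP1, the repressor that holds eIF4E, at -0.74 (1097 ± 160 and 656 ± 109) and PABPC4, a poly(A)-binding protein, at -0.67 (360 ± 49.7 and 231 ± 71.8). For EIF4EBP1 alone of these 4 the groups did not overlap. Tested genes within 5 Mb had medians of -0.34 for EIF2S3, 0.04 for PDCD4, 0.05 for EIF4EBP1 and -0.35 for PABPC4. Their part in these falls was not tested. PDCD4 lay near the threshold (adjusted p = 0.0491 by limma) and missed it without R749H replicate 3 (0.0530) and without wild-type replicate 1 (0.101).

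EEF1A2, the paralog of EEF1A1 that is best known from muscle and neurons, was chosen for mention after its values were seen. Its level was 175.1 ± 39.5 RPM in wild-type and 306 ± 52.2 in R749H, a log2 difference of 0.81 (SE 0.19, adjusted p = 0.00473 by limma), with no overlap. By listed reads EEF1A2 was above EEF1A1 in every library. No read was listed at the EEF1A1 ends that have copies elsewhere in the genome, nor at its annotated end at +2045, which has none, as given above. Whether any of these ends is used in these cells was not tested.

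**Figure D4:**
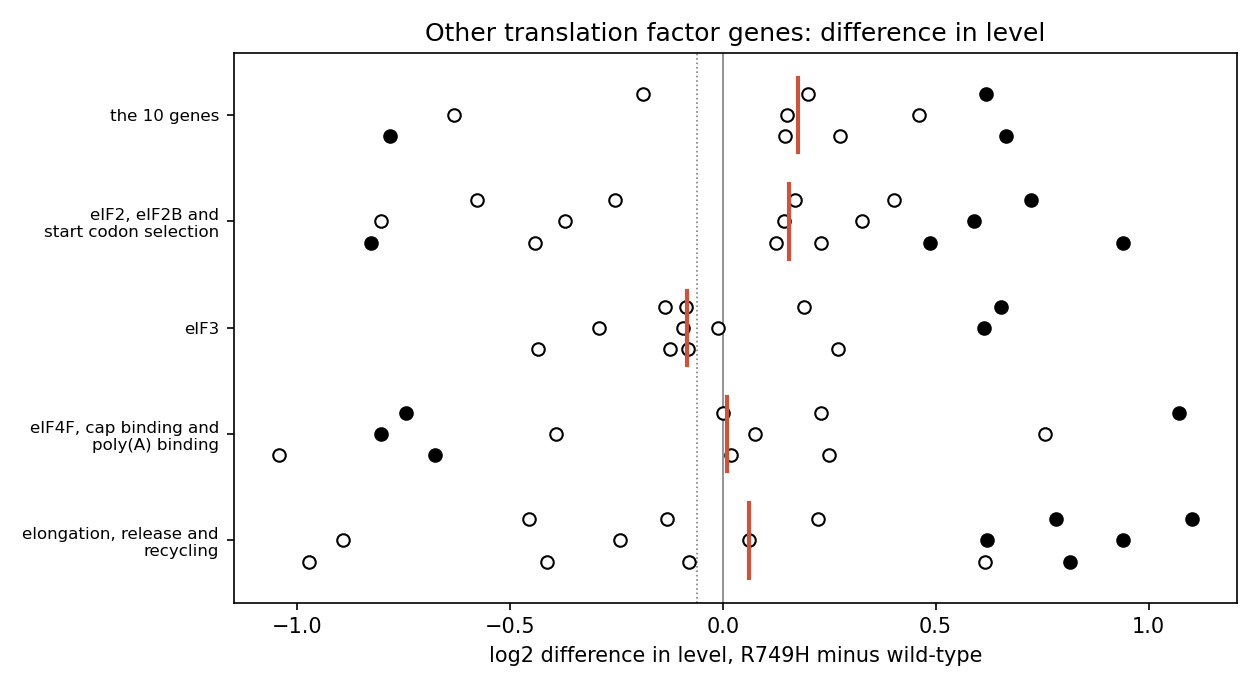
Difference in level between R749H (4 libraries) and wild-type (5 libraries), as log2, for the 10 genes and for the tested genes of 4 lists of other translation factors. Each circle is a gene, filled where it passed the test, vertical bars are list medians and the dotted line is the median of all genes, -0.06. Filled circles lie on both sides of 0 for the 10 genes, for eIF2 and for eIF4F, and on the right only for eIF3 and for elongation, release and recycling.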

How the data were processed

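The authors removed 4 random nt and leading Ts from each 3’ READS read, mapped at most 77 nt to hg19 without mismatches in the first 30 nt (bowtie in the methods; Bowtie2 2.3.2 in the submitters' processing notes), discarded reads whose terminal As were templated by the genome, and linked 3’ ends to the CCDS stop codons that precede them by at most 5 kb. The deposited values are reads per 3’ end scaled by the authors to 7000000 poly(A) reads per replicate, a signal and not counts. Division by the smallest step gave whole reads for 100% of values (tolerance 0.011), with 2766410 to 11251600 poly(A) reads per library. This depth limits precision mainly for EIF5A. Pooled columns, scaled to 25000000, served only to choose isoforms and clusters and to set the median 3’ end of each gene for the downstream share. Comparison columns were not used, and the nascent RNA samples were not analysed here.

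Reads were summed per gene over its 3’ ends and fitted with limma 3.58.1 (R 4.3.3, edgeR 4.0.16 for TMM factors and filterByExpr, prior count 2, trended spread). Isoform and downstream shares were fitted as log2 odds (0.5 reads added, at least 20 reads per library on average), and cluster positions in nt. Adjusted p-values are Benjamini-Hochberg over all features tested, threshold 0.05, and ratios were compared by exact permutation. Tests were two-sided. Count models (edgeR, DESeq2 1.42.0) were run on recovered reads as alternatives. Scripts were tested on simulated data, with 1 fixed spread that was not fitted to these data. There 167 of 193 genes changed by 1 on the log2 scale were called in gene expression, of 9415 tested. Hexamers and copies were searched in GRCh37, and 15475 of 15558 CCDS entries sat at an annotated stop codon. The 10 genes, the lists and the tests were chosen with earlier results of these data known. Named were all 10 genes, their leading isoforms and clusters and up to 3 others by adjusted p, and the 4 largest changes in each direction among other translation factors past the threshold. EEF1A2 and EIF2S2 were named besides. Reads carry no molecular identifiers.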

Additional observations from a re-analysis of the deposited data

Results flagged for a closer look

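Within the groups of 4 or 5 libraries, 90 sets of values were checked for a single library far from the rest, by the gap to its nearest neighbour over the whole range (Dixon's 95% limit). Chance alone flags about 1 in 20 such groups, and 8 were found, 5 of them in wild-type replicate 1. In that library EIF4G2 was at 453.6 normalised RPM (159.0 to 184.3 in the other wild-type libraries), EEF1B2 at 493.9 (637.8 to 689.6), and the log2 ratio of EIF4A1 to EIF4A2 at -0.85 (-2.46 to -2.17). Its downstream share was 1.17% for EEF1B2 (0.757% to 0.844% in the others) and 6.28% for EEF1G (9.57% to 10.5%). The remaining 3 flags describe 1 shift in wild-type replicate 3 of EIF4A1: 58.4% of reads ended at +520 (45.1% to 46.8% in the others), 58.4% lay downstream of +519 (45.6% to 46.8%), and the cluster lay at 519.3 nt (519.0 to 519.1).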

How the results depend on the processing

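The count of the 10 genes that passed the test for level was 3 and stayed between 2 and 4 under every alternative run except the one without TMM factors, where it was 1; leaving out each library gave 2 to 4, and R749H replicate 3 and wild-type replicate 1 were the libraries that changed a call, of EIF4A2 and EIF4G2. Without TMM factors EEF1A1 (-0.17), EEF1D (-0.17), EEF1G (-0.040) and EEF2 (-0.12) changed sign; without wild-type replicate 1 and R749H replicate 3 together, an alternative chosen after seeing the data, EEF1G (-0.061), EIF4A1 (0.015) and EIF5A (0.039) did. Leaving out single libraries moved EEF1G between -0.052 and 0.46. No share, position or ratio of the 10 genes passed the test under any alternative run. Over all features, genes called for downstream share (3) became 6 with 0.1 reads added, 1 with isoforms above 5% only, 5 with the replicate block (without wild-type replicate 5) and 11 with the spread trended on the thinner side (chosen after seeing the data), and 2 to 10 without single libraries. Isoforms called (18) became 3 with at least 50 reads, 4 with 0.1 reads added, 10 without a trend, and 3 to 33 without single libraries.

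Sign changes of differences in shares, positions and ratios, none of which passed the test, were these. Downstream share with division at the midpoint gave EEF2 -0.043, EIF1 0.73 and EIF5A -1.23, with 0.1 reads added EIF5A -0.23, and with the replicate block EIF1 0.023, the same as without wild-type replicate 5 alone; leaving out single libraries gave EEF1D -0.066 to 0.13, EIF1 -0.11 to 0.023 and EIF5A -0.50 to 0.78. The EIF1 midpoint lies between its 2 groups of ends and sets the distal ends apart, while the division at +172 falls within the main cluster. The 2 divisions of EIF1 therefore measure different shares. Isoform EIF1 +172 was at -0.017 with the block, again as without wild-type replicate 5 alone, and at -0.017 to 0.12 without single libraries, EIF4A1 +518 at -0.086 to 0.16, and the EIF4A1 cluster at -0.025 to 0.050 nt. The log2 ratio of EEF1A1 to EEF2 was 0.063 in libraries thinned to the smallest and -0.17 to 0.13 without single libraries, and EEF1D to EEF1G -0.24 to 0.064. The cause was not tested. Replicate numbers 1 to 4 are shared by both groups but did not pair the libraries (correlations of deviations -0.089, -0.008, 0.020 and -0.013); the fit with the number as a replicate block used replicates 1 to 4 and so left out wild-type replicate 5. In it 3 of the 10 genes passed for level, with EIF1 at -0.89, EEF1B2 at 0.69 and EIF4A2 at 0.62, the same values as in replicates 1 to 4 without the block, where 3 passed too. Assigning ends to 1 gene name and summing CCDS rows were not run, since each 3’ end stands in 1 entry.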
